A study of Sus scrofa with 6 samples.

Results

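Upper glycolysis and glycogen entry were followed through 10 enzyme genes, namely HK1, GPI, PFKL, PFKM, PFKP, PFKFB3, PGM1, PGM2, GYS1 and GBE1. They were chosen by name, and all probe sets whose annotated gene symbol was exactly one of these names were taken. This gave 10 probe sets for 8 of the 10 genes, out of 23999 probe sets and 6765 named genes on the array. No probe set was annotated with the symbols PFKFB3 and GBE1, so that both were not analysed here, and as 13732 probe sets carried no symbol and 198 several, transcripts of these genes may still be on the array. The samples were IPEC-1 cells, a non-transformed epithelial line from the small intestine of newborn piglets, grown on porous membranes as air–liquid interface (ALI) culture with a thin apical liquid film or as submerged membrane culture (SMC) under a column of medium. The medium was free of serum in the last weeks in both groups. Each culture type was measured on 3 GeneChip Porcine Genome Arrays, 1 at each of passages P109, P111 and P113, so that replicates 1, 2 and 3 are 3 passages of 1 cell line and not 3 animals. The free-text description in the sample labels names liver, whereas cell line and source name the gut.

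Glucose that enters a cell is phosphorylated by hexokinases, and the resulting glucose-6-phosphate stands at a branch point. Glucose-6-phosphate isomerase and phosphofructokinase carry it down glycolysis, where phosphofructokinase makes the committed step. Phosphoglucomutase instead turns it into glucose-1-phosphate, from which glycogen synthase and the branching enzyme build glycogen, and the same mutase returns sugar from glycogen to glycolysis. Several of these steps have isozymes encoded by separate genes, and many genes of glycolysis are known targets of the hypoxia-inducible factor HIF-1.

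In ALI cells the transcripts of PGM1 and GPI were lower than in SMC cells, by 2.96-fold and 2.34-fold. HK1 and PFKL were 1.52-fold and 1.65-fold lower and passed the test only when the passage was taken into account. For PFKM, PFKP, PGM2 and GYS1 no difference was detected, and none of the measured enzymes passed as higher in ALI cells. The values are log2 signals that the authors deposited, and a fold change is the difference of the ALI and SMC means. In such bulk samples, fewer cells that express a gene and less RNA per cell cannot be told apart.

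**Figure D1:**
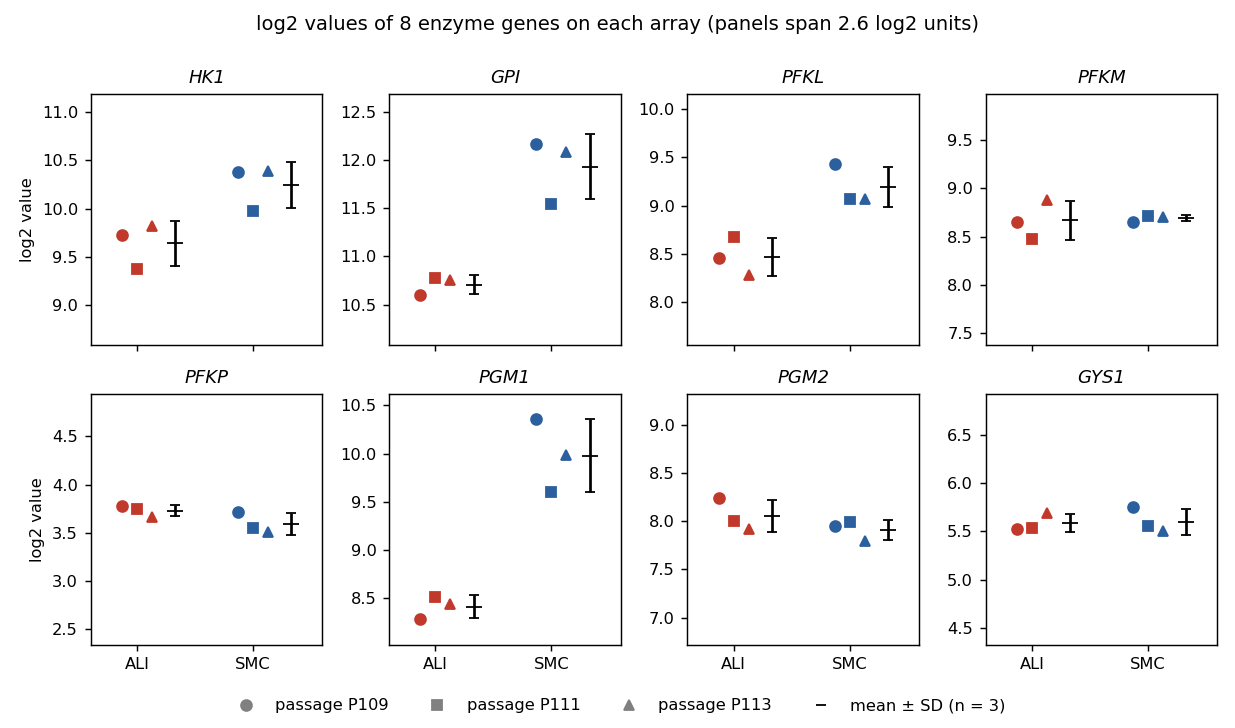
Log2 value (vertical axis) on each of the 6 arrays for the 8 measured genes, ALI left and SMC right in each panel, with 1 symbol shape per passage and the mean ± SD (n = 3) as a bar. The vertical axes start at different values but all span the same range, and the 3 ALI values lie below the 3 SMC values for HK1, GPI, PFKL and PGM1, whereas the groups overlap for the other 4 genes.

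At the entry of glucose, HK1 encodes hexokinase 1, the widely expressed hexokinase that binds to mitochondria. Its log2 values at passages P109, P111 and P113 were 9.73, 9.38 and 9.82 in ALI cells and 10.38, 9.97 and 10.40 in SMC cells. All ALI arrays were below all SMC arrays, and passage P111 was the lowest passage in both culture types. The mean was 9.64 ± 0.233 in ALI cells and 10.25 ± 0.240 in SMC cells (SD, n = 3 arrays each), a log2 fold change of -0.61 (standard error 0.16, 95% interval -0.98 to -0.24, adjusted p = 0.124 from limma). With the passage as a block the same difference had a standard error of 0.10 and an adjusted p of 0.0137. The differences within passages P109, P111 and P113 were -0.65, -0.60 and -0.58, so that the difference between the culture types varied less than the level of the gene between passages.

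GPI encodes glucose-6-phosphate isomerase, the enzyme between hexokinase and phosphofructokinase. It had log2 values of 10.60, 10.77 and 10.75 in ALI cells, against 12.17, 11.54 and 12.08 in SMC cells. The groups did not overlap, and the SMC array of passage P111 was the closest to the ALI arrays. The mean log2 value was 10.71 ± 0.0973 in ALI and 11.93 ± 0.338 in SMC cells (SD, n = 3 each). The log2 fold change was -1.22 (standard error 0.17, 95% interval -1.61 to -0.84, adjusted p = 0.0141), rank 95 from the most negative of all 23999 probe sets. With the passage as a block, the adjusted p was 0.00455. Without ALI replicate 1 the log2 fold change was -1.17 and no longer passed (adjusted p = 0.0766).

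Phosphofructokinase is a tetramer built from liver (PFKL), muscle (PFKM) and platelet (PFKP) type subunits, and the 3 genes did not give the same picture. PFKL had log2 values of 8.45, 8.67 and 8.28 in ALI cells and 9.43, 9.07 and 9.07 in SMC cells. The ALI arrays were again all lower, with the narrowest gap at passage P111, where ALI was highest. The log2 fold change of PFKL was -0.72 (standard error 0.15, 95% interval -1.06 to -0.38), and its adjusted p was 0.0554 without and 0.0204 with the passage as a block. Left without 1 array at a time, its log2 fold change lay between -0.82 and -0.60, with adjusted p from 0.0597 to 0.182.

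PFKM had log2 values of 8.65, 8.47 and 8.88 in ALI cells and 8.66, 8.71 and 8.70 in SMC cells. The ALI values lay on both sides of the SMC values, and the ALI arrays were more spread than the SMC arrays. The log2 fold change was -0.02 (95% interval -0.31 to 0.26, adjusted p = 0.961), and its sign turned after quantile normalization, to 0.0043. PFKP gave signals of 3.66 to 3.78 in ALI and 3.51 to 3.72 in SMC cells, on all 6 arrays within the lowest 25% of the array's values. Its signal is therefore not shown to be above background, and its log2 fold change of 0.14 (adjusted p = 0.613) is no measure of a transcript change.

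The isozymes were compared by the difference of their log2 values on each array, which leaves the levels of different probe sets aside and compares only their changes. The change of PFKL in ALI cells minus that of PFKM was -0.70 log2 units. The PFKL value minus the PFKM value was -0.20, 0.20 and -0.60 on the ALI arrays, against 0.77, 0.35 and 0.37 on the SMC arrays, without overlap. The exact permutation test, two-sided, gave p = 0.1, the smallest p that 3 against 3 arrays allow, and 0.133 after Benjamini-Hochberg adjustment over the 4 pairs compared. The 2 pairs with PFKP were counted in this adjustment, but their differences are not given, as PFKP was not shown to be above background. Within passages the gap between PFKL and PFKM was -0.97 at passage P109, -0.15 at passage P111 and -0.98 at passage P113. PFKFB3, whose product makes the allosteric activator of phosphofructokinase, was not analysed here.

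PGM1 encodes the main phosphoglucomutase, which links glucose-6-phosphate with glycogen in both directions, and it had the most negative log2 fold change of the measured enzymes. Its log2 values were 8.28, 8.51 and 8.44 in ALI cells, against 10.36, 9.60 and 9.98 in SMC cells. The lowest SMC array, that of passage P111, was still above the highest ALI array, which was of the same passage. The mean was 8.41 ± 0.118 in ALI and 9.98 ± 0.379 in SMC cells (SD, n = 3 each). The log2 fold change of -1.57 (standard error 0.18, 95% interval -1.99 to -1.14, adjusted p = 0.00759) was rank 43 from the most negative of all 23999 probe sets. PGM1 kept an adjusted p under 0.05 when any 1 of the 6 arrays was left out, with log2 fold changes of -1.76 to -1.38 and adjusted p from 0.0112 to 0.0469. With the passage as a block its adjusted p was 0.0027.

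PGM2, the second phosphoglucomutase, which in human cells acts mainly on phosphopentoses, did not follow PGM1. It had log2 values of 8.24, 8.01 and 7.92 in ALI cells and 7.95, 7.99 and 7.80 in SMC cells. The groups overlapped, although ALI was the higher one within each passage, at passage P111 by 0.01 only. Its log2 fold change was 0.14 (standard error 0.12, 95% interval -0.13 to 0.42, adjusted p = 0.65). The change of PGM1 minus that of PGM2 was -1.71 log2 units, and this gap lay between -1.94 and -1.54 without any 1 array. The exact permutation p was again the smallest possible, 0.1, with 0.133 after adjustment over the 4 pairs.

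GYS1 encodes the glycogen synthase of muscle and most other tissues and was the only gene here with more than 1 probe set. The probe set with the highest signal had log2 values of 5.52, 5.54 and 5.69 in ALI cells and 5.75, 5.55 and 5.50 in SMC cells, and the groups overlapped fully. Its log2 fold change was -0.02 (95% interval -0.27 to 0.24, adjusted p = 0.967). The other probe sets of GYS1 gave -0.05 (95% interval -0.29 to 0.19) and 0.18 (95% interval -0.14 to 0.51). The dimmest of them, with 0.18, had signals of 4.10 to 4.42 in ALI and 3.90 to 4.29 in SMC cells, within the lowest 25% of every array. None of the 3 probe sets passed the test with or without the block, and their signs differed. GBE1, the glycogen branching enzyme, was not analysed here, so that for the building of glycogen there are values of GYS1 alone.

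**Figure D2:**
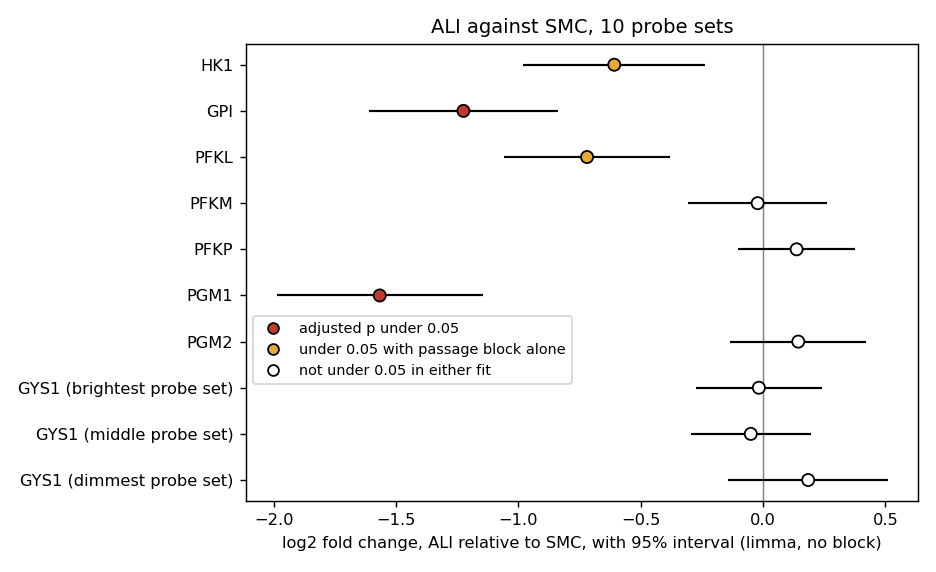
Log2 fold change of ALI relative to SMC cells (horizontal axis) for the 10 probe sets, with the 95% interval of the fit without a block. The 3 probe sets of GYS1, ordered by signal, and those of PFKM, PFKP and PGM2 have intervals that include 0, whereas those of HK1, GPI, PFKL and PGM1 lie below 0.

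Counted over all probe sets of these enzymes, 2 of 10 were lower in ALI cells at an adjusted p under 0.05, and 0 of 10 were higher. Over the whole array 1.23% of the probe sets were lower and 0.663% were higher by the same rule. With the passage as a block, 4 of 10 were lower and 0 were higher, against 3.32% lower and 2.0% higher over the whole array. Groups without overlap were seen in 4 of 10 probe sets, all with ALI lower, where 9.27% of all probe sets had all ALI arrays lower and 10.3% had all ALI arrays higher. The median log2 fold change of the 8 genes was -0.32 (range -1.57 to 0.14), against 0.01 over the 6765 named genes. It was -0.61 over the 7 genes with a mean log2 value above 4 and -0.66 over the 6 genes above 6, so that its size depends on the dim genes. These genes were chosen with earlier results of these arrays known, so that their share is a description.

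The passages allow a look at how steady the differences were. HK1, GPI, PFKL and PGM1 were lower in ALI cells at all 3 passages, as were 18.5% of all probe sets, and PGM2 and the dim PFKP were higher at all 3, as were 22.7% of all probe sets. The difference of PGM1 was -2.07 at passage P109, -1.09 at passage P111 and -1.54 at passage P113. That of GPI was -1.57, -0.77 and -1.33 and that of PFKL was -0.97, -0.39 and -0.79 in the same order. Thus the difference was smallest at passage P111 for these 3 genes, whereas that of HK1 was nearly even. Among the 296 probe sets that were lower in ALI cells, 36.5% had their smallest difference at passage P111, 33.1% at passage P109 and 30.4% at passage P113. For GPI and PGM1 the ALI arrays were closer together than the SMC arrays, for PFKM and PGM2 it was the other way round, and for HK1 and PFKL the SDs of both culture types were nearly equal. With 1 array per culture type and passage, a difference between passages was not tested.

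**Figure D3:**
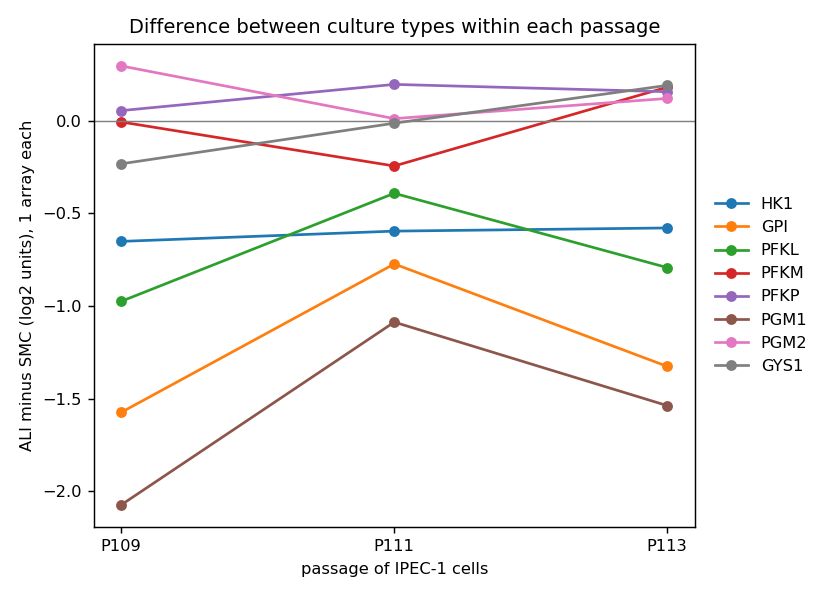
Difference of the log2 values, ALI minus SMC (vertical axis), within passages P109, P111 and P113 (horizontal axis) for the 8 genes, each point from 1 ALI and 1 SMC array. The lines of PGM1, GPI and PFKL lie below 0 and come closest to 0 at passage P111, HK1 runs nearly flat between -0.65 and -0.58, and the other 4 genes stay near 0.

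PGM1 and GPI varied together over the 6 arrays, with a Pearson r of 0.993, and PFKL followed them at 0.95 and 0.923. HK1 correlated with PGM1 at 0.88 and with GPI at 0.903, while PFKM correlated with PGM1 at 0.032. These values over 6 arrays describe mainly the step between the culture types that the genes share. Among 5056 other named genes with a mean log2 value above 6, the pattern most like PGM1 was that of TPI1, the triosephosphate isomerase of glycolysis, at 0.998. It was followed by HPRT1, a purine salvage enzyme, at 0.996 and by RGCC, a regulator of the cell cycle, at 0.992. The same 3 genes were the most similar to GPI, with TPI1 and RGCC at 0.993 and HPRT1 at 0.991.

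Of 16 other gene symbols listed for upper glycolysis, 7 had a probe set. Of these 7 genes, 2 were lower in ALI cells and none was higher, against 1.23% and 0.663% of all probe sets. The median log2 fold change of the 7 genes was -0.12. ALDOC, an aldolase that splits the sugar bisphosphate, was lower at -1.75 (adjusted p = 0.00292) and TPI1 at -1.61 (adjusted p = 0.00447), both more negative than the value of PGM1. FBP1, which runs the phosphofructokinase step backwards in gluconeogenesis, did not pass at -0.34 (adjusted p = 0.44), nor did the related FBP2 at -0.12. Of 17 gene symbols listed for lower glycolysis, 12 had a probe set. Of these 12 genes, 4 were lower (LDHA, ENO1, PGK1 and GAPDH) and none was higher, against 1.23% and 0.663% of all probe sets. The median of the 12 was 0.07. LDHA was at -2.24, and ENO1 and PGK1 were both at -1.64. The brightest of the 5 probe sets of GAPDH gave -0.74. However, on SMC replicates 1 and 2 it held the highest value of all tested probe sets, at 14.82 and 14.74, and so lay at the top of their range. A further 3 probe sets of GAPDH were lower at -1.28, -1.21 and -1.19, and the dimmest, in the lowest 25% of every array, did not pass at -0.25. BPGM and PGAM2 did not pass, at 0.66 and 0.20. HK1 and PFKL had smaller differences than ALDOC, TPI1, LDHA, ENO1 and PGK1, and the difference between genes was not tested.

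Of 33 other gene symbols listed for glycogen metabolism, 15 had a probe set. Of these 15 genes, 1 was lower and none was higher, against 1.23% and 0.663% of all probe sets. This was PGM3 at -0.71 (adjusted p = 0.0149), which despite its name makes a precursor of protein glycosylation and not of glycogen. PPP1R3B, a subunit that targets protein phosphatase 1 to glycogen, had log2 values of 4.82, 4.76 and 5.26 in ALI cells and 5.75, 6.33 and 7.47 in SMC cells. The groups did not overlap, and the SMC values were widely spread. Its log2 fold change of -1.57 had an adjusted p of 0.0931, and of 0.00565 with the passage as a block. SLC37A4, the carrier of glucose-6-phosphate into the endoplasmic reticulum, did not pass either, at -0.56 (adjusted p = 0.452). The median of the 15 genes was -0.06. The 1 called gene of this list is thus no enzyme of glycogen itself.

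**Figure D4:**
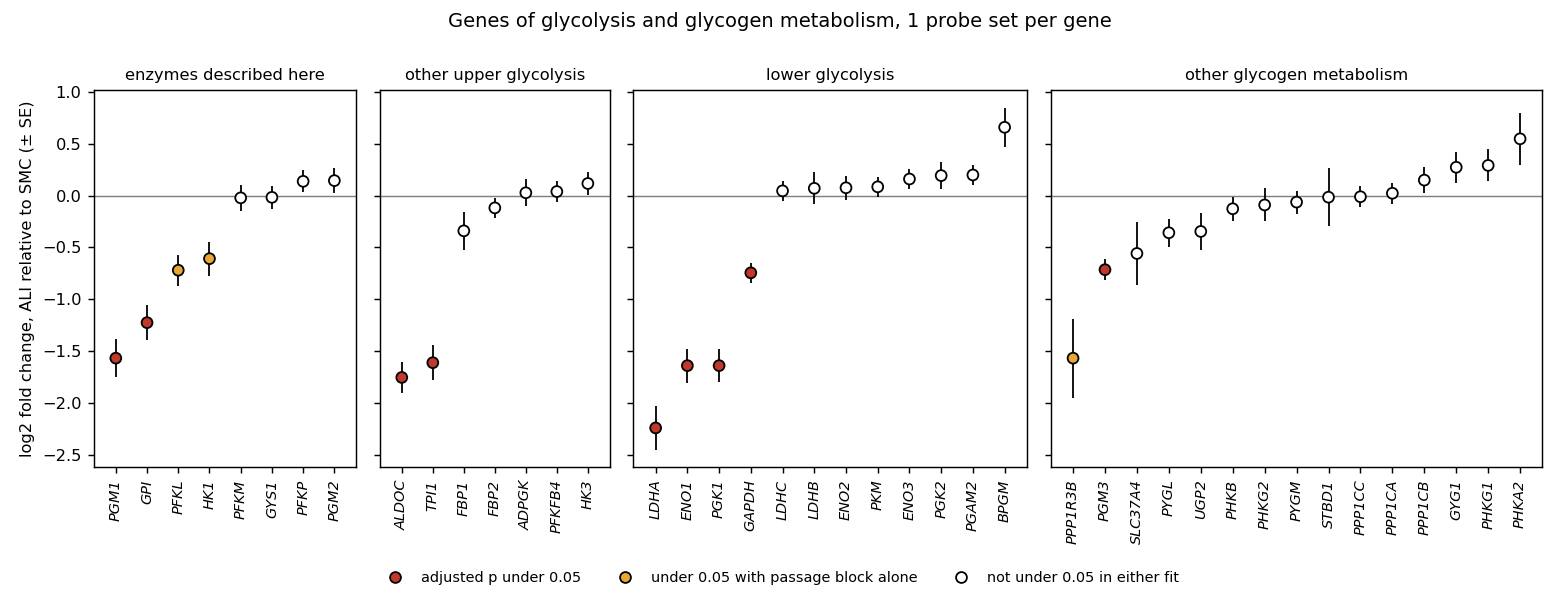
Log2 fold change of ALI relative to SMC cells (vertical axis, ± standard error) for each measured gene of the 4 groups, with 1 probe set per gene and the genes of a panel sorted by value. Red points passed the test, amber points (HK1, PFKL and PPP1R3B) passed with the passage as a block alone, and the called genes run from LDHA at -2.24 to PGM3 at -0.71.

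Over all arrays the medians of the log2 values lay between 6.33 and 6.38, and no array stood apart by its quantiles. Of 8 epithelial markers none passed, and their median log2 fold change was -0.14. It was negative for VIL1 (-0.45), CLDN7 (-0.38), KRT18 (-0.19), KRT19 (-0.18) and CDH1 (-0.10). It was positive for KRT8 (0.12), CLDN4 (0.10) and EPCAM (0.07), and EPCAM had a mean log2 value of 13.39 in ALI and 13.32 in SMC cells. A second, dimmer probe set of CDH1 was lower at -0.78 (adjusted p = 0.0412), while the brighter one gave -0.10. The second, dimmer probe set of KRT8 had the opposite sign to the brighter one, at -0.51, and did not pass (adjusted p = 0.321). Of 5 markers of mature enterocytes none passed, and 1 of them, FABP2, was in the lowest 25% of the values on all arrays and APOA4 on 3 of 6. APOA1, SLC5A1 and ANPEP were above this range on all arrays, with means of 8.52, 6.33 and 5.27 in ALI and 8.67, 6.88 and 5.34 in SMC cells. Of 8 markers of fibroblasts and smooth muscle none passed. Their summed linear signal was 1095 to 2541 in ALI and 1586 to 1935 in SMC cells. TAGLN was the brightest of them, with means of 10.12 in ALI (SD 0.96) and 10.17 in SMC cells (SD 0.38). Its log2 fold change was -0.06, with differences of -0.15, 0.65 and -0.67 within passages P109, P111 and P113. PDGFRB gave -0.50, with 0.11, -0.75 and -0.84 in the same order, while its second, dimmer probe set gave 0.05. The log2 fold change was 0.23 for COL1A2, 0.13 for COL3A1, 0.10 for ACTA2 and 0.07 for DES. Of the 8, 2 (LUM at -0.02 and DCN at 0.0042) were in the lowest 25% on all arrays. Of 7 endothelial and immune markers PECAM1 alone was lower, at -0.50 (adjusted p = 0.0448), where 1.23% of all probe sets were lower. A second, dimmer probe set of PECAM1 did not pass at -0.37 (adjusted p = 0.145). The summed linear signal of these 7 genes was 304 to 336 in ALI and 357 to 379 in SMC cells. PECAM1 was the brightest of the 7, and the log2 fold changes of the rest lay between -0.08 and 0.09. On all arrays 3 of the 7 (CDH5, KDR and PTPRC) were in the lowest 25%, whereas PECAM1, VWF, CD14 and CD3E were above it. The part of other cell types in the differences of PGM1 and GPI was not tested.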

How the data were processed

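RNA of 3 ALI and 3 SMC cultures of IPEC-1 cells was measured on GeneChip Porcine Genome Arrays. The authors deposited log2 values, 1 column per array, which they normalized by GC-RMA according to the methods. The submitters' processing notes name GCOS 1.1.1, whereas the methods name a different version of GCOS. GC-RMA makes the distributions of the arrays nearly equal, so a change shared by most transcripts would not be seen. The table holds 24123 probe sets without detection calls. The values were not scaled again, and the 124 control probe sets were left out.

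For the other 23999 probe sets, a linear model with the culture type as factor was fitted by limma 3.58.1 (lmFit, eBayes; R 4.3.3), and p-values were adjusted by Benjamini-Hochberg over all of them. The code was tested on simulated data. Probe sets with an adjusted p under 0.05 were called. Symbols came from the platform annotation, and of several probe sets the one with the highest mean represented the gene. Differences between isozymes were tested by exact permutation (SciPy 1.17.1). Per the labels, 1 ALI and 1 SMC array share a passage. Their deviations from the group means correlated at 0.34, 0.14 and 0.451 for passages P109, P111 and P113. The main fit and the main permutation tests did not use this pairing. A second fit took the passage as a block. Its adjusted p is given beside that of the main fit for HK1, GPI, PFKL, PGM1 and PPP1R3B. The ALI array of passage P111 correlated more with the SMC array of P109, at 0.219, than with its own. Since HK1 and PFKL were called with the block alone, their calls rest on this pairing. According to the methods the arrays come from independent experiments, and the p-values speak only for these 3 passages of 1 cell line. The limma p-values use a probe set's spread between the arrays of a group, moderated towards a value shared by all probe sets. With the block, it is the spread of the differences within passages that is moderated in this way. Arrays have no depth, so precision is limited by how many were run. No genome build is tied to the array in the sources used here, so no coordinates or sequences are given.

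Named are all 10 enzymes, the called genes and the 2 uncalled genes farthest from 0 of each pathway list, and the 3 genes most like each called enzyme by Pearson r. The measured markers of other cell types and of the epithelium are all named, which was decided after their values were seen. The enzymes and lists were chosen with earlier results of these data known. Alternatives were a passage block, quantile normalization, filters on dim probe sets, an intensity trend, a robust fit, the methods' t-test, averaging a gene's probe sets, and leaving out each array.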

Additional observations from a re-analysis of the deposited data

How the results depend on the processing

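The number of probe sets of these enzymes called lower was 2. It was 4 with the passage as a replicate block and 4 with the methods' t-test unadjusted, 0 with that t-test after Benjamini-Hochberg adjustment, and 1 to 2 without 1 array, with 1 only without ALI replicate 1. Over all 23999 probe sets, the unadjusted t-test called 1423 lower, the adjusted one called 0 in either direction, and without ALI replicate 1 limma called 71 lower, against 296 with all arrays. No setting called a probe set of these enzymes higher. The block added HK1 and PFKL and changed no other call of these enzymes. After that adjustment of the t-test, PGM1 and GPI had an adjusted p of 0.193 and 0.213. The median log2 fold change of the genes, -0.32, was -0.61 among probe sets with a mean log2 value above 4 and -0.66 above 6, as these filters remove PFKP, and above 6 also GYS1, and so leave fewer genes near 0. The sign of PFKM turned to 0.0043 after quantile normalization and lay between -0.13 and 0.076 without 1 array. That of the brightest GYS1 probe set lay between -0.070 and 0.059 without 1 array. The cause of these turns was not tested. HK1, GPI, PFKL, PGM1 and the differences of PFKL from PFKM and of PGM1 from PGM2 kept their sign under all alternatives run. For these pairs the block allows no p below 0.25 and leaving out 1 array none below 0.2. Without detection calls, PFKP and the dimmest GYS1 probe set are not shown to be above background.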
